A study of Mus musculus with 12 samples.

Results

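Cultured mouse microglia given the coiled-coil part of neurofilament light chain (NfL) were compared with microglia given vehicle, using the 4 libraries titled CC-NfL and the 4 titled Vehicle of a series of 12, and every gene that passed a filter on low counts (14687 of 52636). The cells were WT C57BL/6 microglia from brains of pups aged 1 to 2 days. They were shaken off mixed glial flasks after 10 to 13 days and plated at 50000 cells per well in medium with serum and 2.5 ng of CSF1, the survival factor of microglia. All groups share these conditions, and experiments were done 2 to 4 days after plating. Treatment lasted 24 h with vehicle, with 5 µg of coiled-coil NfL or with 5 µg of full-length NfL (FL-NfL, 4 libraries). The labels place replicates 1 to 4 in batches of their own, each with 1 library per treatment. They do not give the species, residues, preparation or endotoxin level of the NfL proteins. Cells cultured from newborn brain in serum are a limited model of microglia in the adult brain.

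NfL is a subunit of the neurofilaments that give axons their calibre, and it leaks into tissue fluid when axons are damaged. Its middle part is an alpha-helical rod that pairs with another subunit as a coiled coil. It lies between a head and a tail that the full-length protein also carries. Microglia are the resident macrophages of the brain. They sense released material through pattern recognition, scavenger and Fc receptors. An activated state is usually read from chemokines, cytokines, complement and antigen presentation genes, together with lower levels of genes typical of resting cells.

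Libraries held 20162427 to 31048044 counts. Mitochondrial genes took 0.21% to 0.518% of them, and coiled-coil libraries were below the vehicle library of their batch in batches 1, 2 and 4. The 12 markers of microglia and macrophages were all measured and summed to 15444 to 18245 CPM (read counts per 1000000 after scaling) with vehicle and to 16348 to 20360 CPM with coiled-coil NfL. Markers of other brain cells were low in comparison. Neuron markers summed to 32.6 to 103 CPM with vehicle and 27.3 to 77.1 CPM with coiled-coil NfL, and astrocyte markers to 28.6 to 66.5 and 24.8 to 57.8 CPM. Oligodendrocyte lineage markers summed to more, at 246 to 279 CPM with vehicle and 242 to 300 CPM with coiled-coil NfL. Among markers of blood leukocytes Cd3e, Mpo, Nkg7 and S100a9 were at 0 in all 8 libraries, and among endothelial and ependymal markers Cldn5, Ccdc153 and Tmem212 were at 0. Nefl, the mouse gene of NfL itself, was listed at 0 to 0.216 CPM in every library and was not tested. Among genes described below, 15.9%, 14.4% and 14.3% of the 50-base windows of the transcripts of Ebi3, Cd9 and Csf1r also occur in another annotated gene, so that the separation of their reads depends on how reads were counted.

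In the fit of all 4 batches, coiled-coil NfL raised 1 gene and lowered 1 gene against vehicle. These are 0.00681% of the 14687 genes tested in each direction (edgeR quasi-likelihood test with Benjamini-Hochberg adjustment, threshold 0.05). The gene that rose was Fcrl5, an immunoglobulin-like receptor of the Fc receptor-like family best known from B cells. The gene that fell was Thbs1, which encodes the secreted matrix protein thrombospondin-1. An unadjusted p under 0.05 was reached by 2689 genes, 18.3% of those tested, of which 1355 were higher and 1334 lower (1106 and 1639 with upper-quartile scaling). An adjusted p under 0.07 was reached by 7 genes and under 0.1 by 140.

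Fcrl5 (ENSMUSG00000048031, chromosome 3, 87435773 to 87500678, plus strand, GRCm38) was measured with vehicle at 0.0868, 0.628, 0.362 and 0.475 CPM in batches 1 to 4. With coiled-coil NfL it was measured at 0.344, 5.39, 1.96 and 3.92 CPM. It was higher with coiled-coil NfL within every batch, but the groups overlapped, because the coiled-coil library of batch 1 lay below 3 of the vehicle libraries. The log2 difference was 2.81 ± 0.28 (SE, n = 4, edgeR adjusted p = 0.00936). The gene is sparse, with 2, 15, 9 and 11 reads in the vehicle libraries and 9, 166, 39 and 102 in the coiled-coil libraries.

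Thbs1 (ENSMUSG00000040152, chromosome 2, 118111876 to 118127133, plus strand) was at 235, 47.1, 90 and 35.6 CPM with vehicle. It was at 178, 30.4, 66.5 and 21.9 CPM with coiled-coil NfL. Batches differed more than treatments, and the groups overlapped, yet each coiled-coil library was below the vehicle library of its own batch. The log2 difference was -0.53 ± 0.06 (SE, n = 4, edgeR adjusted p = 0.0227), and the log2 ratios within batches were -0.4, -0.62, -0.43 and -0.69. Batch 1 took part in this fall. Without the replicate block neither Thbs1 nor Fcrl5 passed, and the smallest adjusted p of any gene was 0.414. With the 8 vehicle and coiled-coil libraries alone it was 0.0896. Both calls were also lost when batch 2, 3 or 4 was left out, and in each fit without 1 of the coiled-coil libraries of those batches or the vehicle library of batch 2 or 4.

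The promoter window of Fcrl5 is shown as that of the only gene called higher by the edgeR test over all batches. The window of Cxcl9 is shown as that of the chemokine with the smallest p in that test. Both run from 250 bases before the RefSeq start to 50 bases after it on the strand of the gene (GRCm38.p6, from RefSeq). They were searched on both strands for 3 motifs: the interferon-stimulated response element (GAAANNGAA), the kappa-B site bound by NF-kB (GGGANTTNC) and the AP-1 site bound by Jun and Fos proteins (TGANTCA). Capitals mark the matches.
Fcrl5, chr3:87435532-87435831, plus strand: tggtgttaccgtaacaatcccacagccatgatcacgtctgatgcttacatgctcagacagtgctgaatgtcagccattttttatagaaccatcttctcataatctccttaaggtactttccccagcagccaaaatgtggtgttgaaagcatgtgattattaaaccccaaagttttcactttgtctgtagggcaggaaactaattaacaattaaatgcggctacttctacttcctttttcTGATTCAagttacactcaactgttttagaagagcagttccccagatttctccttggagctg
Cxcl9, chr5:92328030-92328329, minus strand: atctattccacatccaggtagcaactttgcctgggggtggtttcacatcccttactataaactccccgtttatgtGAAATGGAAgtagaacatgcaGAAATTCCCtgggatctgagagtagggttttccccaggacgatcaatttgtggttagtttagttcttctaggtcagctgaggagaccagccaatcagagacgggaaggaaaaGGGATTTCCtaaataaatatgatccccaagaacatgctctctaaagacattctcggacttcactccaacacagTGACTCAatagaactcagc
The Fcrl5 window held 1 match to the AP-1 letters, next to the start. The Cxcl9 window held, from left to right, 1 interferon element, 2 kappa-B matches and 1 AP-1 match past the start. Over all 32851 RefSeq mouse windows, 8.56% held the interferon element, 4.26% the kappa-B letters and 7.81% the AP-1 letters. Of Fcrl5 and the 10 largest rises described below, 10 genes had a window. Among these 1 held the interferon element and 1 the kappa-B letters (Cxcl9 in both cases), and 2 the AP-1 letters. Of the largest falls, 6 genes had a window, with 10 windows together, and 2 of these genes held the AP-1 letters. These counts are of genes with a match in any of their windows, while the shares over all RefSeq windows count windows. A match describes these letters only.

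The 4 batches responded unequally. A ratio was formed in each batch between its coiled-coil and its vehicle library, on log2 of CPM plus 0.5. In batch 1, 14 genes (0.0953%) were at least 2-fold higher and 4 (0.0272%) at least 2-fold lower. In batch 2 the counts were 240 (1.63%) and 188 (1.28%). In batch 3 they were 55 (0.374%) and 47 (0.32%), and in batch 4 they were 245 (1.67%) and 146 (0.994%). The SD of the log2 ratios over all genes was 0.235, 0.437, 0.296 and 0.417 in batches 1 to 4. Batch 1 was thus the narrowest and batch 3 the next, although 1 library per treatment and batch gives no test of this order. These counts move with the pseudocount, which sets how far genes near 0 can differ.

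The vehicle and coiled-coil libraries of batch 1 were also the most alike of all 66 pairs of libraries. A chi-square per gene, taken over genes with at least 50 counts in both libraries together, averages 1 where 2 libraries differ by counting noise alone. It averaged 8.96 between those 2 libraries, so they differ beyond counting noise and are not copies of 1 library. Between coiled-coil and vehicle libraries of batches 2, 3 and 4 it averaged 80.9, 24 and 68.9. Full-length NfL of batch 1 stood at 123 from the same vehicle library, and 271 genes were at least 2-fold higher and 274 at least 2-fold lower in that ratio. In these measures the vehicle library of batch 1 stood farther from the full-length than from the coiled-coil library of its batch. The files do not show whether the coiled-coil well of batch 1 received the same protein as those of the other batches.

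Each batch was then left out in turn. Without replicate 1, 504 genes were called higher (3.46% of 14578 tested) and 528 lower (3.62%) with coiled-coil NfL. Without replicate 2, 3 or 4 no gene was called in either direction by the edgeR test, with 1239, 2704 and 996 genes at an unadjusted p under 0.05. DESeq2 on all 4 batches called 258 higher and 240 lower. Of these, 216 and 221 were also among the genes called without replicate 1. Calls from batches 2 to 4 describe those batches, since batch 1 was already known to respond least. In the sentences below "called" refers to that fit of 3 batches, and the value in batch 1 is given beside it as a description. Counts of list members called against vehicle are to be read beside the shares of 3.46% higher and 3.62% lower over all genes.

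In batch 1, set aside because it was known to respond least, the genes called from batches 2 to 4 went about equally in both directions. Of the 504 higher genes, 250 were also higher in batch 1, which is 49.6% against 49% of all tested genes. Of the lower genes that were also tested in the fit of 4 batches, 284 of 527 were lower in batch 1 (53.9% against 51% of all genes), with a median log2 ratio of -0.02. The same genes had median log2 ratios of 0.72, 0.28 and 0.71 in batches 2 to 4 for the higher set and of -0.64, -0.35 and -0.61 for the lower set. Full-length NfL over vehicle within batch 1 gave medians of 0.58 and -0.69 for them, with 471 and 517 genes in the direction of the call. Full-length and coiled-coil ratios of a batch share their vehicle library.

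Batches 2, 3 and 4 kept more of the direction when each was left out. Since no gene was called then, genes with an unadjusted p under 0.01 in the other 3 batches were followed. In batch 2, 97 of 98 higher genes (99%) and 115 of 124 lower genes (92.7%) kept their direction. In batch 4 the counts were 92 of 96 (95.8%) and 88 of 88 (100%). In batch 3 they were 327 of 487 (67.1%) and 260 of 313 (83.1%), with median log2 ratios of 0.08 and -0.24. By the same choice 435 of 854 higher genes (50.9%) and 466 of 848 lower genes (55%) kept it in batch 1. Of all tested genes, 48.7% to 51.3% had the direction in question in these batches. The genes followed in batches 2, 3 and 4 were chosen with batch 1 in the fit, so these sets are not of the same kind as that of batch 1. Batches 2 and 4 were themselves alike. The chi-square per gene averaged 12.3, 12.2 and 10.2 between their vehicle, coiled-coil and full-length libraries. The next smallest value within a treatment was 23.6 (coiled-coil replicates 3 and 4). Each of batches 2 and 4 was followed with the other in the fit, so their shares are not independent of each other. The fit of batches 2 to 4 counts both as separate samples, and its SE and p-values below rest on that.

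The level of the chosen genes in batch 1 can be read against the other vehicle libraries. Over the 504 higher genes, the median log2 level lay 0.12 above the mean of vehicle replicates 2 to 4 in vehicle replicate 1, and 0.12 above it in coiled-coil replicate 1. Coiled-coil replicates 2 to 4 lay 0.62, 0.53 and 0.55 above it, and vehicle replicate 3 lay 0.25 above it. Over the 527 lower genes, coiled-coil replicate 1 was at -0.03 and coiled-coil replicates 2 to 4 were at -0.6, -0.46 and -0.52. Coiled-coil replicate 1 was thus close to vehicle in both sets. The genes were chosen by the difference between coiled-coil and vehicle replicates 2 to 4. The distance of coiled-coil replicates 2 to 4 from that mean therefore follows from the choice.

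**Figure D1:**
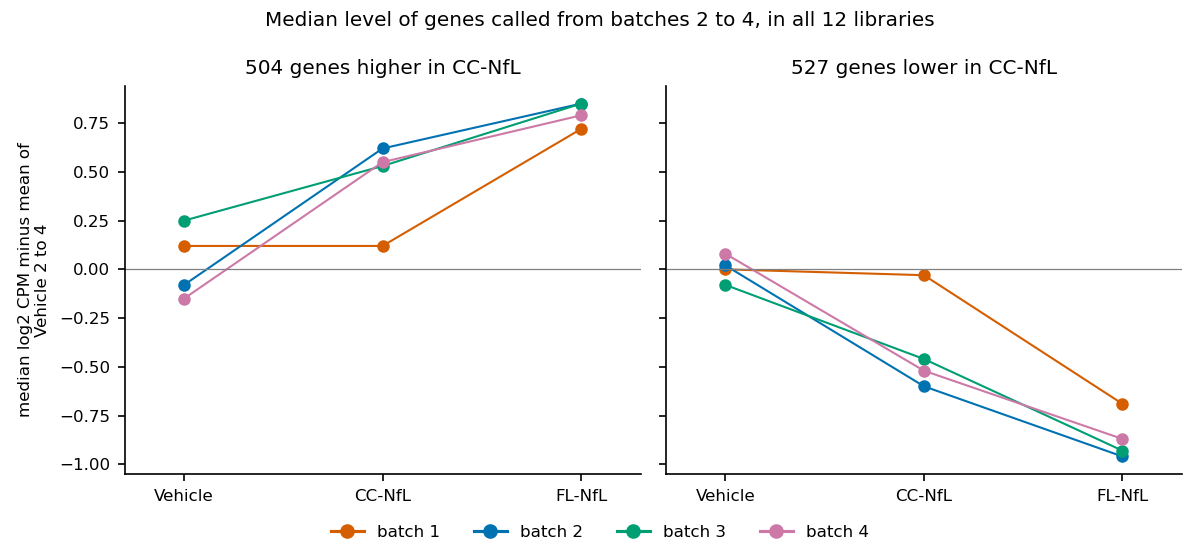
Median log2 CPM of genes called from batches 2 to 4, minus the mean of vehicle replicates 2 to 4, for each of the 12 libraries (x axis: treatment; colour and line: batch). In batch 1 the coiled-coil point sits at the level of vehicle (0.12 in the left panel, -0.03 in the right) while the full-length point of that batch (0.72 and -0.69) lies near the full-length points of the other batches. The distance between vehicle and coiled-coil points of batches 2 to 4 follows from the choice of the genes.

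Several chemokines were among the largest rises in batches 2 to 4. Cxcl13, which attracts B cells, was at 7.6, 3.48, 12.6 and 2.46 CPM with vehicle and at 8.82, 95.9, 40.8 and 64 CPM with coiled-coil NfL. The last 3 coiled-coil libraries exceeded every vehicle library, and that of batch 1 lay among them. The log2 difference was 3.51 ± 0.47 without replicate 1 (SE, n = 3, edgeR adjusted p = 0.00461) and 2.90 ± 0.62 over 4 batches (n = 4, adjusted p = 0.0986). Ccl5, which attracts T cells and monocytes, was at 28, 15.7, 49.1 and 13.6 CPM with vehicle and at 45.4, 340, 152 and 192 CPM with coiled-coil NfL. It was higher within each batch, with log2 ratios of 0.69, 4.4, 1.62 and 3.77. Cxcl9, an interferon-inducible chemokine, was at 1.04, 1.93, 1.85 and 1.04 CPM with vehicle and 1.49, 18.1, 5.27 and 12.2 CPM with coiled-coil NfL. Its coiled-coil value in batch 1 lay within the vehicle range. Ccl7 and Ccl8, both monocyte attractants, were called too (log2 1.81 and 2.48, adjusted p = 0.0416 and 0.0188), with log2 ratios of 0.8 and 0.29 in batch 1. Of the 18 chemokines tested in that fit, 6 were called higher and 1, Cxcl14, lower. Over the 19 tested in the fit of 4 batches the median log2 difference was 0.29, against 0.005 over all tested genes.

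Not every chemokine followed. Cxcl10, a chemokine that like Cxcl9 signals through Cxcr3, was at 41.5, 77.9, 158 and 36.7 CPM with vehicle and at 37.9, 87.5, 82.2 and 65.8 CPM with coiled-coil NfL. Its groups overlapped and its log2 ratios went both ways, from -0.94 in batch 3 to 0.84 in batch 4 (log2 difference -0.04 ± 0.2, adjusted p = 0.941). Part of the reads of Cxcl10 can come from a neighbour, since 3.59% of the 50-base windows of its transcripts also occur in another gene.

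Receptors of the Fc, Siglec, SLAM and CD300 families were called in both directions. Siglece, an inhibitory receptor for sialic acid, was at 18.6, 5.24, 7.19 and 5.84 CPM with vehicle and at 13.7, 58, 39.2 and 53.5 CPM with coiled-coil NfL. Coiled-coil replicates 2 to 4 lay above every vehicle library, and coiled-coil replicate 1 lay below the vehicle library of its batch. The log2 difference without replicate 1 was 3.02 ± 0.16 (n = 3, adjusted p = 6.86e-05). Cd300e, an activating myeloid receptor, was at 0.955, 0.168, 0.683 and 0.432 CPM with vehicle and at 1.26, 6.11, 2.26 and 6.72 CPM with coiled-coil NfL, so that the groups did not overlap. Slamf9 reached 125, 55.1 and 73.6 CPM in coiled-coil replicates 2 to 4 and 12.8 CPM in replicate 1, against 9.16 to 26.3 CPM with vehicle. Of 25 tested receptors of these families, 9 were called higher and 5 lower. The lower ones included Fcgr3, an activating IgG receptor (log2 -0.78, adjusted p = 0.00419), Fcgr2b, the inhibitory IgG receptor (-0.87, 0.0044), and Cd33 (-0.72, 0.0224). Fcgr3 and Fcgr2b share sequence (9.58% of the 50-base windows of Fcgr3 occur in another gene), so that their reads may be split uncertainly.

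Complement genes also divided. C3, the central complement component, was at 1105, 338, 898 and 290 CPM with vehicle and at 1146, 3038, 1943 and 2128 CPM with coiled-coil NfL. The groups did not overlap, but batch 1 exceeded its own vehicle library by a log2 ratio of 0.05 only. Without replicate 1 the difference was 2.35 ± 0.34 (n = 3, adjusted p = 0.00561). Of 16 complement genes, 6 were called higher, among them Cfb, factor B of the alternative pathway (log2 2.43), Cfp, properdin (0.98), and C2 (0.71). C2 overlaps another annotated locus, and 41.5% of the 50-base windows of its transcripts occur there or in further genes. Cd93 (-0.61) and the integrin Itgax (-0.61) were called lower.

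Cytokines and the NF-kB pathway were called in the higher direction only. Il1b, which encodes interleukin-1 beta, was at 102, 33.1, 40.9 and 28.1 CPM with vehicle and at 83.4, 108, 73.8 and 86.5 CPM with coiled-coil NfL. Vehicle replicate 1 was the highest vehicle library and made the groups overlap. The difference was 1.37 ± 0.18 without replicate 1 (n = 3, adjusted p = 0.00419) and 0.89 ± 0.3 with it (n = 4, adjusted p = 0.165). Of all genes tested, 3.46% were called higher and 3.62% lower, and over 4 batches 1355 and 1334 of 14687 had an unadjusted p under 0.05. Of 14 cytokines and mediators tested, 4 were called higher and none lower (with 7 higher and 0 lower at an unadjusted p under 0.05 over 4 batches). The other 3 were Acod1, which makes itaconate (1.55), Ebi3, a subunit of interleukin-27 (1.14), and Lcn2, which binds siderophores (0.66). Their list had the highest median of the 27, at 0.46 over 4 batches, and at -0.16, 0.74, 0.21 and 0.97 within batches 1 to 4. Tnf was at 36.4 to 43.7 CPM with vehicle and at 37.3 to 57.6 CPM with coiled-coil NfL, and was not called (log2 0.37, adjusted p = 0.0891 without replicate 1). Nos2, the inducible nitric oxide synthase, stayed short of the threshold as well (1.15, adjusted p = 0.0546). Il6 was listed at 0 to 0.521 CPM in these 8 libraries and was not tested.

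Of 24 NF-kB pathway genes, 6 were called higher. They were Traf1 (log2 1.74), Ikbke (1.17), Nfkbiz (0.76), Tnip3 (0.58), Tnip1 (0.46) and Nfkb2 (0.43), which encode adaptors, kinases, inhibitors and the p100 subunit of the pathway. Tnip3 was at 71.4, 62.7, 57.3 and 59.4 CPM with vehicle and at 77.4, 89.3, 81.1 and 97.4 CPM with coiled-coil NfL, so the groups did not overlap, and batch 1 gave the smallest ratio at 0.12. Receptors that feed the pathway divided: Tlr1 (0.77), Tlr9 (0.44) and the inhibitor Irak3 (0.85) were called higher, and Tlr8 (-0.39), Tlr13 (-0.42), Traf6 (-0.28) and Ly86 (-0.33) lower. Tlr2, Tlr4 and Cd14, which are surface receptors for bacterial products, were not called (log2 0.16, -0.03 and 0.07, edgeR adjusted p = 0.385, 0.793 and 0.679). Over 4 batches their log2 differences were 0.02 ± 0.11, -0.02 ± 0.08 and 0.02 ± 0.09 (adjusted p = 0.941, 0.924 and 0.943).

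**Figure D2:**
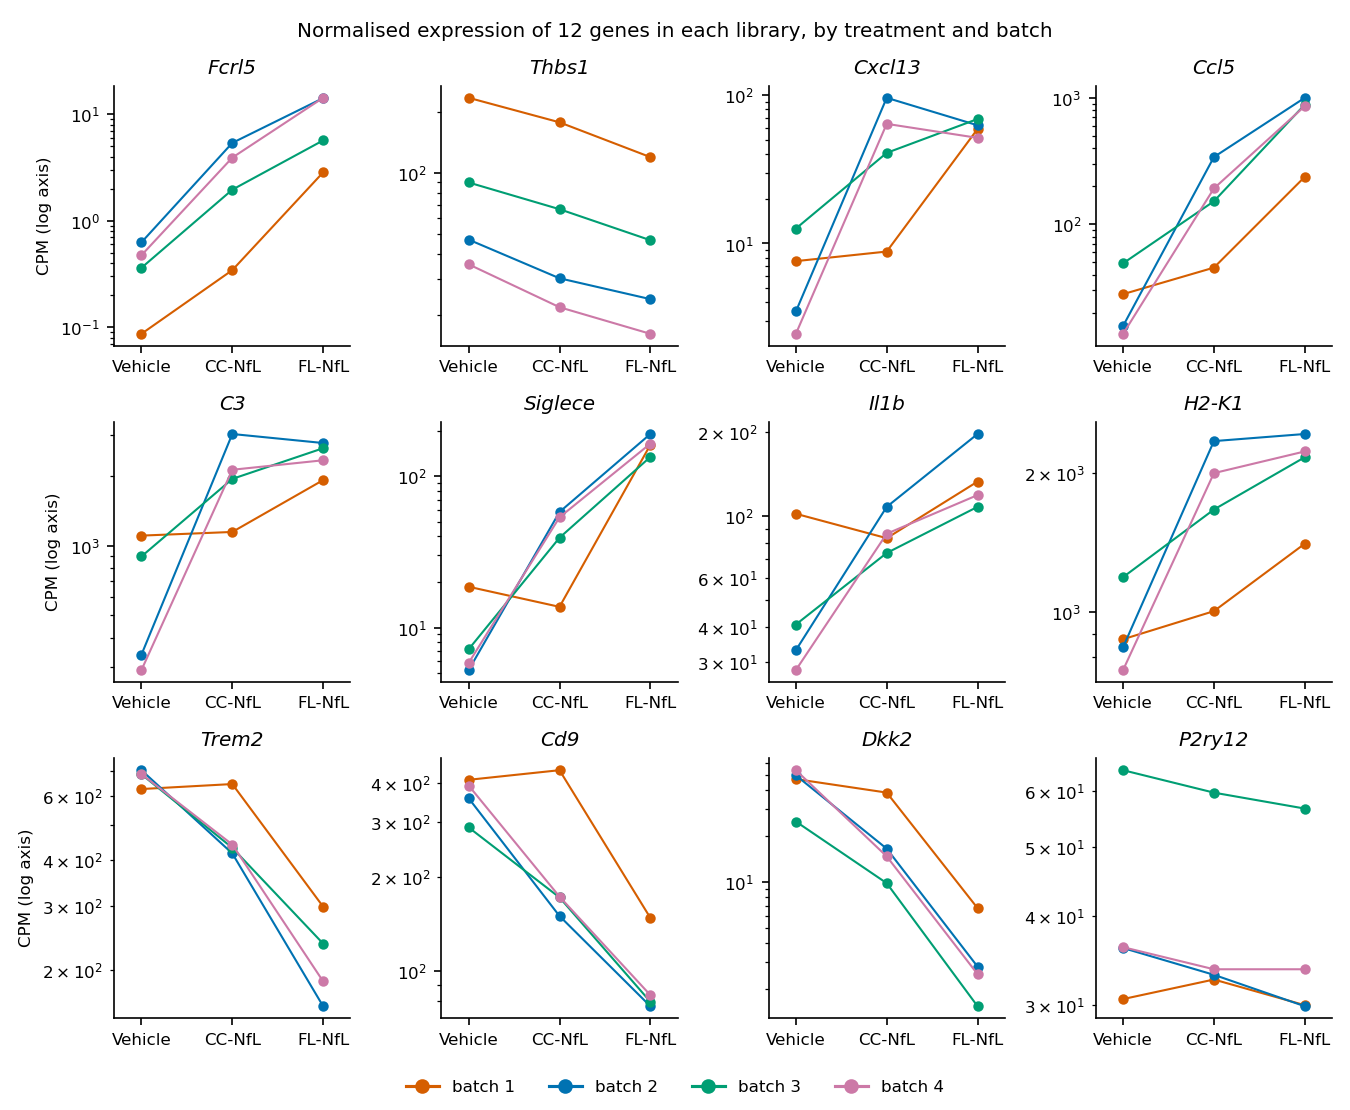
TMM-scaled CPM (log axis) of 12 genes in all 12 libraries, with lines joining the libraries of a batch. For Cxcl13, C3 and Siglece the batch 1 line stays almost level or falls between vehicle and coiled-coil NfL (7.6 to 8.82, 1105 to 1146 and 18.6 to 13.7 CPM), while the Thbs1 lines fall in parallel in all 4 batches.

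Interferon-stimulated and antigen presentation genes had positive median log2 ratios in batches 2 and 4 and negative ones in batch 3, and few of the former were called. Irf7, the transcription factor that amplifies interferon output, was at 258, 487, 795 and 247 CPM with vehicle and at 351, 1754, 1071 and 1232 CPM with coiled-coil NfL. It was higher within each batch, with log2 ratios of 0.44, 1.85, 0.43 and 2.32, though the groups overlapped. Of 33 type I interferon-stimulated genes, 3 were called, all higher: Irf7 (1.51), Ifi44 (1.35) and Bst2 (0.74). In the fit of 4 batches 32 of the 33 had a positive difference, with a median of 0.31, and 18 had an unadjusted p under 0.05. The median was 0.28, 0.49 and 0.84 in batches 1, 2 and 4 and -0.18 in batch 3. Batch 1 thus lay on the side of batches 2 and 4 for this list, and batch 3 did not.

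H2-K1, a classical MHC class I heavy chain, was at 875, 841, 1191 and 751 CPM with vehicle and at 1006, 2340, 1666 and 1996 CPM with coiled-coil NfL. Batch 1 was the only one whose coiled-coil library lay within the vehicle range. Of 22 antigen presentation genes tested without replicate 1, 8 were called, all higher. The median log2 ratio of the 23 tested over 4 batches was 0.09, 0.74, -0.07 and 0.70 in batches 1 to 4. Besides H2-K1 (log2 1.11) they were H2-D1 (0.73), B2m, the class I light chain (0.58), Tapbp (0.64), H2-M3 (0.55), the trimming peptidase Erap1 (0.33) and the proteasome activators Psme1 (0.49) and Psme2 (0.60). H2-Q6 and H2-Q7, class I genes of the Q region, were among the 10 largest rises (2.80 and 2.84, adjusted p = 0.0071 and 0.00731). Of the 50-base windows of their transcripts, 35% and 26.5% occur in other genes, so that their separate levels are uncertain. Proteasome genes followed at a smaller size, with 29 of 29 positive over 4 batches, a median of 0.21 and 8 called higher, from Psmd3 at 0.30 to Psma6 and Psma7 at 0.42. Within batches 1 to 4, 13, 28, 17 and 29 of them were positive.

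The largest of these rises belonged to Slc13a3, a sodium-coupled carrier of dicarboxylates. It was at 358, 30, 29.2 and 28.2 CPM with vehicle and at 268, 725, 171 and 624 CPM with coiled-coil NfL. Vehicle replicate 1 stood about as high as the coiled-coil libraries, and only in batch 1 was the coiled-coil library below vehicle. The log2 difference was 3.82 ± 0.38 without replicate 1 (n = 3, adjusted p = 0.00228) and 2.61 ± 0.75 over 4 batches (n = 4, adjusted p = 0.129). Adgre4, an adhesion receptor related to F4/80, showed the same order, with log2 ratios of -0.78 in batch 1 and 3.13, 1.32 and 2.94 in batches 2 to 4. F4/80 itself, encoded by Adgre1, was at 2187, 2141, 2410 and 1925 CPM with vehicle and 2398, 4880, 3558 and 4600 CPM with coiled-coil NfL. It was called (0.99 ± 0.14, n = 3, adjusted p = 0.00481). Of the 10 largest rises, Slc13a3, Siglece, H2-Q7 and Adgre4 were lower than vehicle in batch 1.

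Of 22 genes typical of homeostatic, or resting, microglia, 10 were called lower and 1, Bin1, higher. Slco2b1, an organic anion carrier, was at 15.7, 77.8, 39.3 and 73.8 CPM with vehicle and 17.2, 17, 20.7 and 18.7 CPM with coiled-coil NfL. Vehicle replicate 1 already stood at the level of the coiled-coil libraries. The difference without replicate 1 was -1.74 ± 0.25 (n = 3, adjusted p = 0.00543). Gpr34, a receptor for lysophosphatidylserine, was called at -1.60 (adjusted p = 0.0175), with log2 ratios of 0.13, -2.08, -0.48 and -2.1. Entpd1, the ectoenzyme CD39 that degrades extracellular ATP, was at 93.8, 89.3, 110 and 105 CPM with vehicle and at 76, 38, 73.5 and 42.2 CPM with coiled-coil NfL. Its groups did not overlap, and it was lower in all batches. P2ry12, the ADP receptor often used as a marker of resting microglia, was at 30.6, 36.1, 64.2 and 36.2 CPM with vehicle and 32.6, 33.1, 59.7 and 33.7 CPM with coiled-coil NfL. Its difference was -0.06 ± 0.06 over 4 batches (95% interval -0.20 to 0.07, adjusted p = 0.612) and -0.11 without replicate 1 (adjusted p = 0.322). Tmem119, another such marker, was at 7.33 to 20.5 and 12.1 to 17.3 CPM. Its difference was 0.4 ± 0.2 over 4 batches (adjusted p = 0.305) and 0.66 without replicate 1 (adjusted p = 0.0692), so it was not called. Csf1r, the CSF1 receptor, was at 3327 to 4445 and 3407 to 4120 CPM (-0.02 ± 0.08 over 4 batches, adjusted p = 0.93).

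Of 26 genes of the disease-associated microglia signature, 9 were called lower and 3 higher. Trem2, a lipid-sensing receptor on which that state depends in mice, was at 626, 705, 687 and 688 CPM with vehicle and at 646, 417, 432 and 441 CPM with coiled-coil NfL. Batch 1 alone showed no fall, and the other 3 coiled-coil libraries lay below every vehicle library. The difference was -0.69 ± 0.11 without replicate 1 (n = 3, adjusted p = 0.00751). Cd9, a tetraspanin, behaved in the same way, at 409, 357, 288 and 392 CPM with vehicle and 439, 150, 172 and 173 CPM with coiled-coil NfL. Apoe, the main lipid carrier of the brain, was at 13952, 16675, 19532 and 16250 CPM with vehicle and 13804, 13053, 10780 and 11467 CPM with coiled-coil NfL. Its groups did not overlap, and its difference without replicate 1 was -0.58 (adjusted p = 0.0307). Spp1, osteopontin (-0.67), and Gpnmb (-0.54) were also called lower. The 3 called higher were Cst7, a cystatin (1.59), Cd52 (1.03) and Fth1, the ferritin heavy chain (0.80).

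Growth factors and matrix genes were called mainly in the lower direction. Of 16 growth factors 7 were called lower and none higher (over 4 batches 0 higher and 10 lower at an unadjusted p under 0.05). Over 4 batches 14 had a negative difference, though 8 were positive in batch 1. Dkk2, a secreted modulator of Wnt signalling, was at 46.9, 49.6, 24.8 and 53.6 CPM with vehicle and 38.3, 16.5, 9.83 and 14.7 CPM with coiled-coil NfL. It was lower in each batch, with log2 ratios of -0.29, -1.56, -1.29 and -1.84, and the difference without replicate 1 was -1.61 ± 0.11 (n = 3, adjusted p = 0.000269). Pdgfb (-0.79), Pros1 (-0.67), Hgf (-0.63), Gas6 (-0.51) and Bmp2 (-0.39) were called too. Of 25 genes of matrix and proteases, 11 were called lower and 2 higher. The lower ones held Thbs1 (-0.58), fibronectin Fn1 (-0.93), Adamts1 (-0.78), Mmp12 (-0.79), Timp3 (-0.67) and Timp2 (-0.38). The higher ones were Mmp9, gelatinase B (1.61), and Mmp14, a membrane-bound protease (1.32). The summed fibroblast and mural cell markers, cells that make much of the matrix, were lower with coiled-coil NfL in each batch (11.6, 5.26, 6.92 and 4.11 CPM against 12.4, 7.87, 9.56 and 6.53 CPM with vehicle). Their part in these falls was not tested.

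The remaining large falls named by the same rule were in genes of varied function. Mamdc2 had log2 ratios of 0.36, -2.51, -1.82 and -2.23 in batches 1 to 4. F13a1, the A chain of coagulation factor XIII, had ratios of 0.18, -2.12, -1.23 and -1.82, and Itgb3, an integrin beta chain, 0.28, -2.2, -0.61 and -2.19. The RNA-binding gene Samd4 (0.23 in batch 1), Tmem154 (-0.03) and Asb10 (-0.02) had log2 differences of -1.88, -1.63 and -1.52 without replicate 1. Ttr, the thyroid hormone carrier transthyretin, met the rule at -5.25 through vehicle replicate 3 alone, which held 44.1 CPM against 0 to 1.72 CPM in the other 7 libraries. Without that vehicle library its difference was 0.57.

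**Figure D3:**
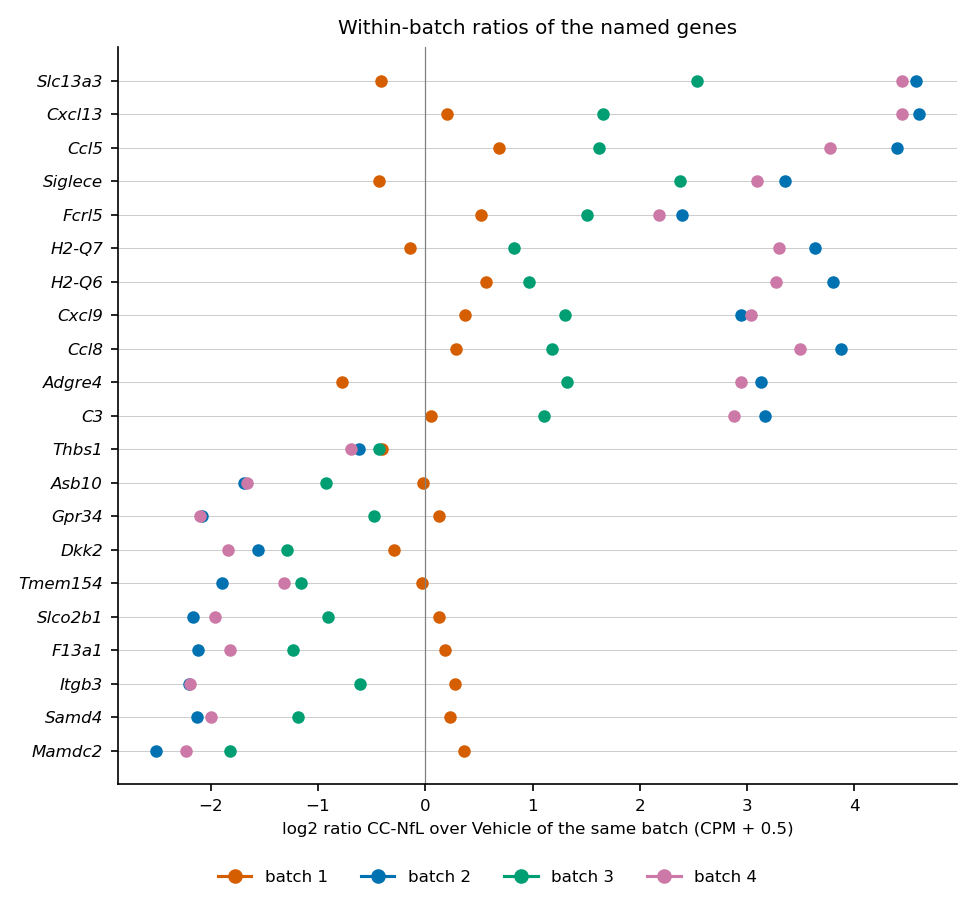
Log2 ratio of coiled-coil NfL over vehicle within each batch (x axis) for the genes called over all 4 batches and the largest rises and falls called from batches 2 to 4 (y axis, ordered by the latter fit; Ttr not drawn). Batch 1 points lie between -0.78 (Adgre4) and 0.69 (Ccl5), and batch 3 points lie nearer to 0 than those of batches 2 and 4 for most genes.

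Scavenger receptors, lipid and iron genes gave mixed counts. Of 27 phagocytic and scavenger receptors, 4 were called higher and 8 lower. Marco, a class A scavenger receptor, had the largest rise of them (log2 2.29, adjusted p = 0.00228). Mrc1, the mannose receptor, was lower (-0.44, 0.019). Of 15 iron genes 6 were called, all higher, led by Cp (0.98), Fth1 (0.80) and Tfrc. Tfrc, the transferrin receptor, was at 116, 124, 114 and 116 CPM with vehicle and 126, 211, 173 and 235 CPM with coiled-coil NfL, with no overlap (0.79 ± 0.08, n = 3, adjusted p = 0.00228). Of 22 cholesterol synthesis genes, Hmgcs1 (-0.35) and Insig1 (-0.47) were called, both lower. Among 20 genes of cholesterol efflux and lipid handling, the sterol sensor Nr1h3 (1.40) and the exporter Abca1 (0.42) were called higher, and Apoe, Nceh1 and Arl4c lower.

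Differences in metabolic genes were small, and some of their counts lie near the shares over all genes (3.46% called higher and 3.62% lower). Of 36 oxidative phosphorylation genes, 33 were positive over 4 batches with a median of 0.15, and 5 were called, all higher and by at most 0.52 (Sdhb). Within batches 1 to 4, 13, 35, 24 and 33 of the oxidative phosphorylation genes were positive. Of 21 glycolysis and pentose phosphate genes, all were positive over 4 batches with a median of 0.14, but only Pfkfb4 was called (0.32). Within batches 1 to 4, 7, 18, 7 and 20 of these 21 were positive. Of 24 targets of NRF2, the regulator of antioxidant genes, 4 were called higher (Me1, Sod2, Txn1 and Srxn1). Of 25 genes of the unfolded protein and integrated stress response, Trib3 (1.37), Ddit3 (1.14) and Asns (0.92) were called higher and Edem1 (-0.44) lower. Ddit3, which encodes the stress factor CHOP, was at 12.6, 24.5, 31.8 and 21.4 CPM with vehicle and 15.5, 77.9, 40.3 and 58.6 CPM with coiled-coil NfL. Jun, a subunit of AP-1, was called lower (-0.64 ± 0.08, n = 3, adjusted p = 0.00394), with Egr2. No cell cycle gene of 36 was called, none had an unadjusted p under 0.05, and the list medians went both ways at 0.46, -0.25, 0.45 and 0.03 in batches 1 to 4.

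**Figure D4:**
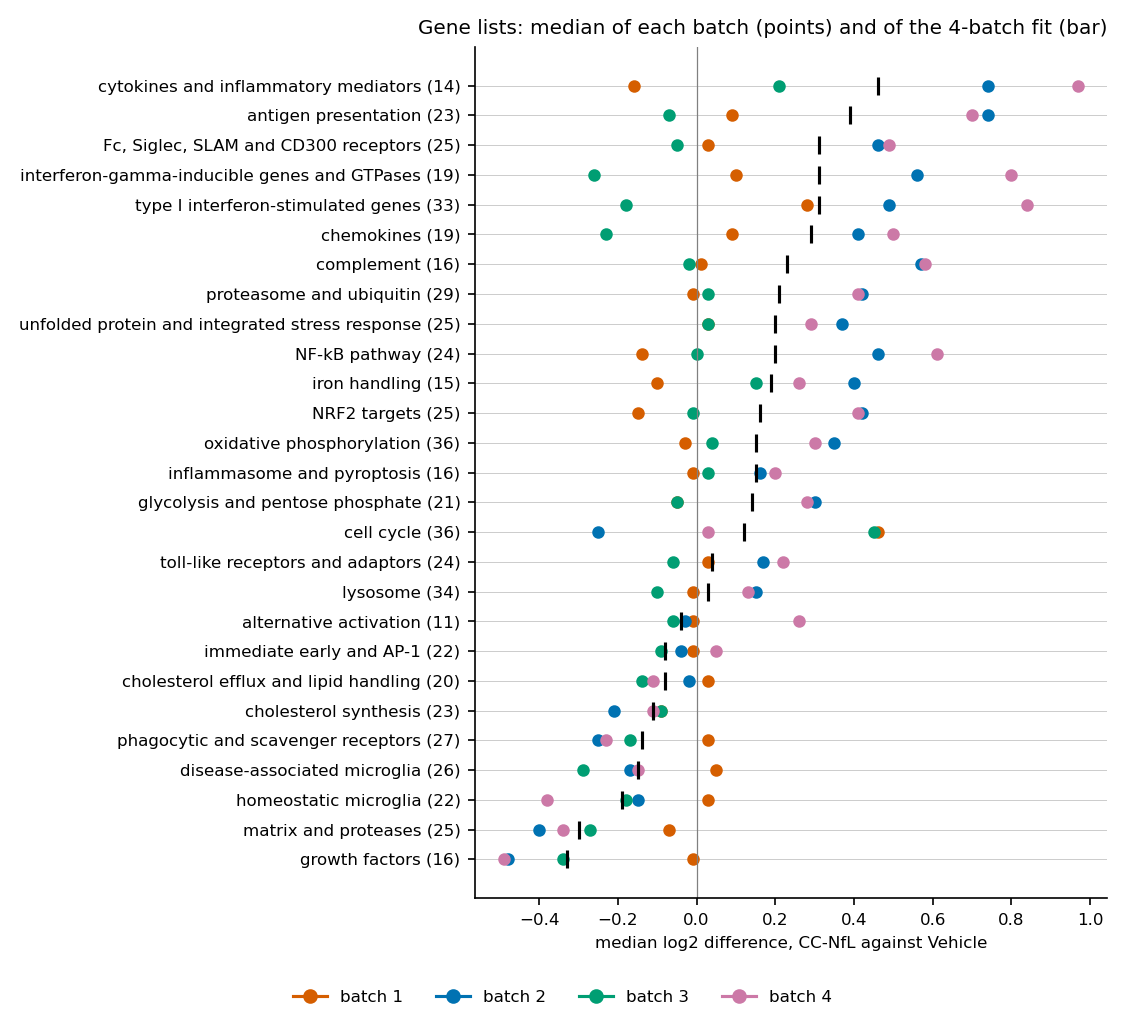
Median log2 difference between coiled-coil NfL and vehicle over the tested genes of each of 27 lists (number in brackets), within each batch (points) and in the fit of 4 batches (bar). Batches 2 and 4 lie far from 0 for the inflammatory lists (0.74 and 0.97 for cytokines), batch 1 lies near 0 in most lists, and the cell cycle points are split.

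Markers of some other cells moved with some of these results. Of 9 tested neuron markers, none had a positive difference over 4 batches (median -0.28), and Tubb3 (-0.71) and Dcx (-0.58) were called lower. Their sum was 74.3, 89.2, 32.6 and 103 CPM with vehicle and 77.1, 53.3, 27.3 and 76.4 CPM with coiled-coil NfL, so it was lower in batches 2, 3 and 4. Astrocyte markers were lower in each batch as a sum (53, 66.5, 28.6 and 60.1 against 50.1, 48.8, 24.8 and 57.8 CPM), with none of 11 called. The summed oligodendrocyte lineage markers were at 277, 276, 279 and 246 CPM with vehicle and 292, 300, 242 and 260 CPM with coiled-coil NfL. This sum was thus higher in batches 1, 2 and 4, while 4 of 11 tested members had a positive difference over 4 batches (median -0.41). None of the 11 was called. Of 7 fibroblast and mural cell markers none had a positive difference over 4 batches (median -0.31), and Acta2, the actin of smooth muscle, was called lower (-0.98, adjusted p = 0.0483). Of 5 endothelial and ependymal markers 2 had a positive difference over 4 batches, and Flt1, a VEGF receptor, was called lower (-0.63, adjusted p = 0.00296). Cdh5 was higher in each batch, with log2 ratios of 0.34, 0.82, 0.19 and 0.55, but was not called (0.70, adjusted p = 0.155). The sum of this list was 46.2, 102, 69.7 and 101 CPM with vehicle and 61.2, 73.5, 51.3 and 66.2 CPM with coiled-coil NfL. Of 9 border-associated macrophage markers, 3 were called higher (Cd209f, Cbr2 and Folr2) and 3 lower (Mrc1, Pf4 and F13a1). Of the 50-base windows of Folr2, 52.6% occur in another annotated gene, so that its level is uncertain. Fewer cells of a type and less RNA per cell cannot be told apart in these bulk samples, and the part of these cells in the falls above was not tested.

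Coiled-coil and full-length NfL were compared directly in the fit of all 4 batches. The difference is between those libraries, while the vehicle libraries in the same model enter its batch terms and its estimate of spread. Coiled-coil NfL was higher than full-length NfL in 1485 genes (10.1%) and lower in 1321 (8.99%). Without the replicate block the counts were 197 and 202, and without replicate 1 they were 1049 and 793. Of the 504 genes called higher against vehicle from batches 2 to 4, 214 were lower with coiled-coil than with full-length NfL and 12 were higher. Of the 527 lower genes, 323 were higher with coiled-coil NfL and 2 were lower. This contrast includes batch 1, which was left out when these genes were chosen. In batch 1 the medians of the higher and lower sets were 0.12 and -0.03 with coiled-coil NfL, relative to vehicle replicates 2 to 4. With full-length NfL of batch 1 they were 0.72 and -0.69. How far batch 1 contributes to these counts was not tested. The dose is given in µg for both, and the labels give no molar amounts.

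Many of the genes above differed between the forms. Slc13a3 was at 2814, 4047, 963 and 2794 CPM with full-length NfL, above every coiled-coil library (log2 coiled-coil minus full-length -2.47, 95% interval -3.9 to -1.04, adjusted p = 0.0244). Ccl5 was at 237, 1000, 883 and 859 CPM with full-length NfL, above the coiled-coil library in each batch (-2.08, -3.13 to -1.03, adjusted p = 0.0144). The calls of Slc13a3 and Ccl5 were lost without the replicate block, and without batch 3 or full-length replicate 2 or 4, among other libraries. Siglece was at 134 to 190 CPM (-1.98, adjusted p = 0.0105), and Cxcl9 at 6.79, 61.6, 33.9 and 66 CPM (-2.21, adjusted p = 0.00138, not called without the block). Nos2 differed as well (-2.06, adjusted p = 0.000897), at 5.7, 13.7, 14.7 and 7.45 CPM with full-length NfL against 1.45, 3.77, 2.06 and 2.23 CPM with coiled-coil NfL. Fcrl5 was at 2.85, 14.2, 5.69 and 14.3 CPM with full-length NfL, higher than the coiled-coil library of each batch (-1.79 ± 0.2, adjusted p = 0.000612). Trem2 was at 298, 159, 236 and 186 CPM with full-length NfL, below every coiled-coil library (1.15, 0.83 to 1.47, adjusted p = 0.000977). Dkk2 was at 6.76, 2.81, 1.55 and 2.51 CPM, below all coiled-coil libraries (2.52, 1.97 to 3.06, adjusted p = 0.000384). Thbs1 differed by 0.47 (0.33 to 0.61, adjusted p = 0.00151) and was lower with full-length NfL in each batch.

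Other genes did not differ detectably between the forms. Cxcl13 was at 59.1, 62.6, 69 and 51.5 CPM with full-length NfL, and coiled-coil replicates 2 and 4 exceeded the full-length library of their batch (log2 difference -0.34, 95% interval -1.51 to 0.83, adjusted p = 0.685). C3 was at 1920, 2777, 2637 and 2339 CPM with full-length NfL (-0.22, -1.09 to 0.65, adjusted p = 0.732). H2-K1 was at 1406, 2424, 2160 and 2223 CPM (-0.25, -0.65 to 0.15, adjusted p = 0.362). Adgre4 was higher with coiled-coil NfL in batches 2, 3 and 4 and lower in batch 1 (0.5, -0.55 to 1.55, adjusted p = 0.487). Tnip3 (-0.1, -0.3 to 0.09), Jun (-0.04, -0.32 to 0.24), Tlr9 (-0.1, -0.3 to 0.09) and Cxcl10 (0.01, -0.44 to 0.45) had narrower intervals. These intervals still allow differences of the sizes given.

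By list, the direct contrast was most uniform for proteasome genes, of which 25 of 29 were lower with coiled-coil than with full-length NfL and none higher. Of unfolded protein and stress genes 17 of 25 were lower and 1 higher, of glycolysis genes 14 of 21 lower and 0 higher, and of NRF2 targets 12 of 25 lower and 1 higher. Homeostatic genes (11 of 22 higher, 1 lower), disease-associated genes (14 of 26 higher, 1 lower) and matrix genes (11 of 25 higher, 1 lower) went the other way. Antigen presentation genes were called in few members (1 higher and 3 lower of 23), as were NF-kB genes (1 higher and 3 lower of 24). In these 2 lists the medians were -0.2 and -0.12, against 0.019 over all genes. The shares over all genes tested were the 10.1% and 8.99% given above.

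**Figure D5:**
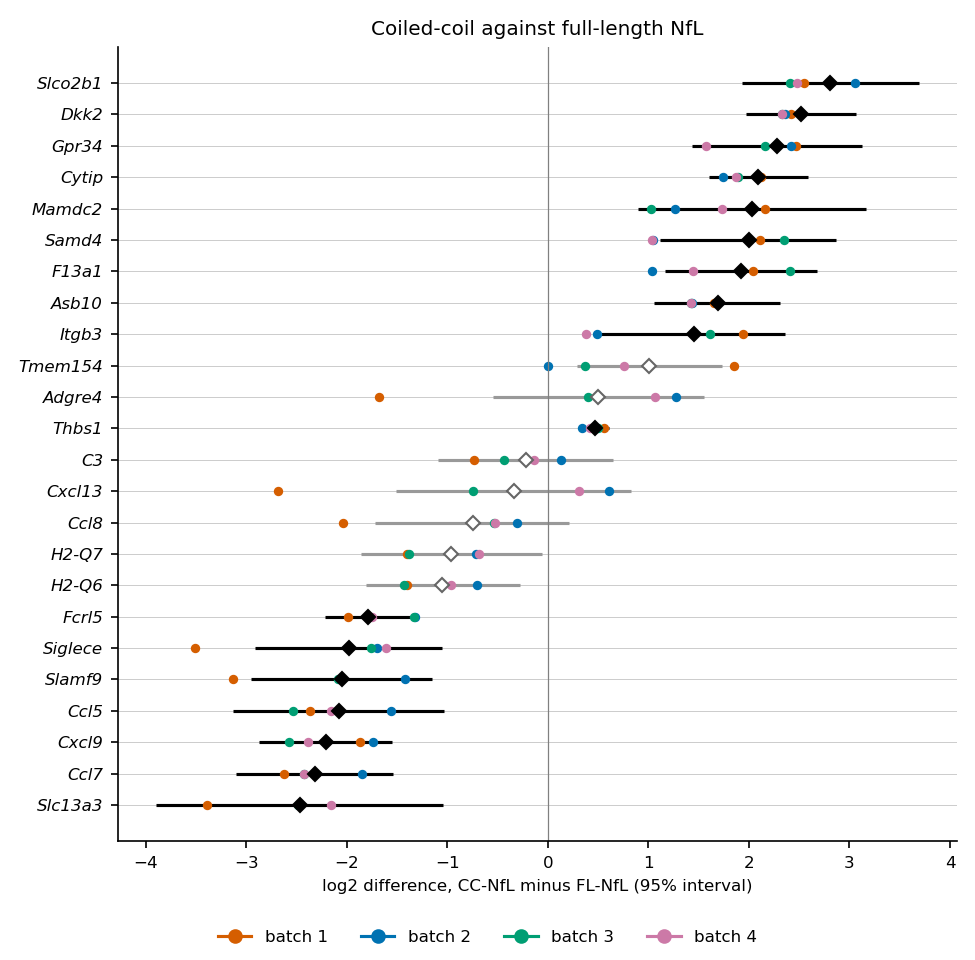
Log2 difference between coiled-coil and full-length NfL for the genes named in either comparison (diamonds with 95% intervals from the edgeR fit; black where the adjusted p is under 0.05, open grey otherwise; Ttr not drawn). Small points are the log2 ratios of CPM plus 0.5 within each batch. For Cxcl13, Siglece and Adgre4 the batch 1 point lies apart from the other 3 on the side of full-length NfL.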

How the data were processed

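The authors deposited 1 table of raw read counts per Ensembl gene for 12 libraries of cultured mouse microglia, with no normalisation. Per the submitters' processing notes, reads were aligned with GSNAP to GRCm38. The sources used here do not give the aligner's version, the counting tool, its annotation or its strand setting, so reads of a gene and its antisense partner may not be separated. Symbols and coordinates come from GENCODE M21 (99.7% of 52636 identifiers matched). All columns of the table were used.

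From the counts, edgeR 4.0.16 (R 4.3.3) kept 14687 genes with filterByExpr, and TMM gave the library scaling. The quasi-likelihood model covered all 12 libraries, with treatment and replicate number (batch) as terms, and leaves 6 residual degrees of freedom. P-values are two-sided quasi-likelihood F tests with Benjamini-Hochberg adjustment over all tested genes at a threshold of 0.05. SE comes from the F statistic. The fit was tested on simulated data. The labels give the batch, and libraries with the same number deviated together from their group means (correlations of 0.306 to 0.735 over 12 pairs, against -0.461 to 0.445 for different numbers). Nothing in the labels says whether batches are separate cultures or litters, so p-values reflect only how far these samples spread, which may be technical.

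The text names the largest called differences of at least 5 CPM, the smallest p of each list where no member was called, the 5 largest differences each way between the NfL forms, and a few genes whatever their result. A few genes these rules name are not reported here. The comparison, the 27 function lists and 8 marker lists were chosen with earlier results of these data known. The ranking from the fit without replicate 1, the list counts in that fit and the choice at an unadjusted p under 0.01 were added after seeing the data. Alternatives were no block, other scalings, filters, pseudocounts, DESeq2 1.42.0, the 8 libraries of the comparison alone, and leaving out each batch or library.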

Additional observations from a re-analysis of the deposited data

Results flagged for a closer look

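In 142 groups of 4 values (the named genes and library measures in the vehicle and coiled-coil libraries), 15 had a highest or lowest sample far from the other 3. Chance gives about 1 in 20 for groups not chosen from the data. Many of these genes were chosen for their differences in batches 2 to 4, with replicate 1 left out. That rate therefore does not apply to them, and the count is no measure of an excess. Coiled-coil replicate 1 stood apart in Cd9 (439 CPM against 150 to 173 in the other coiled-coil libraries), Trem2 (646 against 417 to 441), Cytip (25.9 against 8.03 to 9.79), Mamdc2 (18.8 against 1.81 to 2.73) and S100a8 (1.11 against 0.065 to 0.115). Vehicle replicate 1 stood apart in Slc13a3 (358 CPM against 28.2 to 30 in the other vehicle libraries), Siglece (18.6 against 5.24 to 7.19), Cd14 (1704 against 833 to 934) and Folr2 (20.5 against 50.1 to 55.9). For Cd9, Trem2, Cytip and Mamdc2 the coiled-coil library of batch 1 lay at the level of vehicle. For Slc13a3 and Siglece the vehicle library of batch 1 was above the other vehicle libraries. In that batch the coiled-coil library held 268 and 13.7 CPM of these genes, and the full-length library 2814 and 161 CPM. The part of the vehicle level in the ratios of that batch was not tested.

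Vehicle replicate 3 stood apart in Ttr (44.1 CPM against 0 to 1.17), Ccl8 (18.5 against 0.519 to 1.91) and P2ry12 (64.2 against 30.6 to 36.2), and coiled-coil replicate 3 in P2ry12 (59.7 against 32.6 to 33.7). Vehicle replicate 2 stood apart in Tfrc (124 against 114 to 116), and vehicle replicate 4 in the share of mitochondrial counts (0.518% against 0.4% to 0.419%).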

How the results depend on the processing

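The count of calls between coiled-coil NfL and vehicle (1 higher, 1 lower) moved under many alternatives. It became 0 and 0 without the replicate block (1082 genes at an unadjusted p under 0.05) and with the 8 libraries alone (2405 genes). It became 258 and 240 with DESeq2 and 413 and 350 with no filter. Leaving out 1 batch or library gave 0 to 504 higher and 0 to 528 lower. Every value above 4 came from leaving out batch 1 or 1 of its libraries (383 and 367 without coiled-coil replicate 1, 314 and 356 without vehicle replicate 1), and the cause was not tested. Between the NfL forms the block raised the count: without it 197 genes were higher and 202 lower. Leaving out a batch or library gave 626 to 1201 higher and 458 to 1138 lower there.

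With 0.1 CPM as pseudocount the 2-fold counts were 153 higher and 116 lower in batch 1, 430 and 532 in batch 2, 275 and 315 in batch 3, and 450 and 390 in batch 4. With 2 CPM they were 0 and 0 in batch 1, 152 and 52 in batch 2 and 11 and 7 in batch 3, and 45 lower in batch 4. Followed without the block, 50.2% of the lower genes kept their direction in batch 1, 100% of 9 higher and 77.8% of 9 lower in batch 2, 80.5% of the higher in batch 3 and 78.6% of the higher in batch 4.

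Genes near 0 changed sign in places. Cd14 and Tlr2 were at -0.01 and -0.02 without the replicate block and both at -0.01 with upper-quartile scaling. Over the fits that leave out a batch or library, Cd14 ran from -0.07 to 0.09, Tlr2 from -0.10 to 0.16, Tlr4 from -0.08 to 0.02, Csf1r from -0.07 to 0.02, Cxcl10 from -0.30 to 0.28 and Ttr from -8.75 to 0.57. The 10 genes named between the NfL forms kept their direction under all alternatives. Without the block, 6 of them no longer passed. Leaving out a batch or library lost at most 3 of the 10, all among Ccl5, Mamdc2 and Slc13a3. With 3 or 4 samples a group, differences smaller than the printed intervals are beyond these data.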
